A study of Homo sapiens with 21 samples.

Results

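The NRF, BACH and small MAF factors are a set of basic leucine zipper proteins, taken here with KEAP1, an adaptor that controls NRF2. The set holds 9 genes, picked by symbol: NFE2L1, NFE2L2 and NFE2L3 (which encode NRF1, NRF2 and NRF3), KEAP1, BACH1, BACH2, MAFF, MAFG and MAFK. Each of the 9 symbols was found once among the 19694 genes with a value other than 0, and all 9 are described. The measurements came from RNA sequencing of hTERT-HPNE cells, a nontransformed pancreatic line immortalized with telomerase and grown with EGF, serum and puromycin. Cells were left untreated or were collected 4, 8 or 24 h after either 300 µM hydrogen peroxide (H2O2), which causes oxidative stress, or 400 ng/ml neocarzinostatin (NCS), a radiomimetic drug that breaks both strands of DNA. The 7 groups held 3 biological replicates each, 21 libraries in all, and the same 3 untreated libraries served as control for every time and both agents. The untreated cells were collected at 0 h, so no untreated group was matched to 4, 8 or 24 h. The paper describes fresh medium at treatment. In differences from untreated cells, effects of fresh medium and of time in culture cannot be told apart from those of the agent. The comparison asks how the transcripts of these regulators differ between oxidative stress and DNA double-strand breaks.

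NRF proteins bind antioxidant response elements (AREs) as dimers with a small MAF protein and activate genes of glutathione, thioredoxin, NADPH and iron metabolism. KEAP1 is the adaptor that presents NRF2 to a CUL3 ubiquitin ligase, and oxidation of KEAP1 lets newly made NRF2 accumulate. BACH1 and BACH2 also pair with small MAF proteins, on the same elements, and repress genes such as HMOX1 until heme releases them. The small MAF proteins MAFF, MAFG and MAFK have no activation domain of their own, so their partner decides what the dimer does. Much of this control acts on the proteins, which RNA sequencing does not measure.

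The RNA of the small MAF partners changed most. MAFF, MAFG and MAFK each rose by slightly over 1 on the log2 scale 4 h after H2O2, which is 2.03- to 2.13-fold on the shrunken scale, and all fell again by 8 h. BACH1 rose alongside them by 0.51, whereas NFE2L2 rose by 0.24 and KEAP1 fell by 0.09. The largest change of a small MAF gene after NCS was 0.20, for MAFK at 4 h, and NFE2L2 fell after NCS where it rose after H2O2. BACH2 stayed near the lowest values of the table in all 21 libraries.

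Values are log2 rLog levels, in which differences are shrunk, most of all for genes with few reads. They are not divided by transcript length, so levels are compared between libraries and not between genes. Unless stated otherwise, a difference is the log2 difference of 2 group means with its SE, an adjusted p comes from limma with Benjamini-Hochberg adjustment over all 19694 genes, n = 3 libraries a group, and a gene is said to have changed, risen or fallen where its adjusted p was under 0.05. In these bulk samples, fewer cells of a type and less RNA per cell cannot be told apart. Library medians lay between 7.14 and 7.19, no library duplicated another, and the correlation of any 2 libraries was at least 0.9979. All 8 markers of progenitor and mesenchymal cells had mean levels of 9.26 or more, whereas only 3 of 6 duct markers reached a mean of 5 (KRT7, KRT18 and SOX9), and KRT19, EPCAM and CFTR did not. No acinar, endocrine or endothelial marker reached 5, PRSS1, CELA3A, PTF1A and INS were listed at 0, and of 3 immune markers CD68 alone did.

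**Figure D1:**
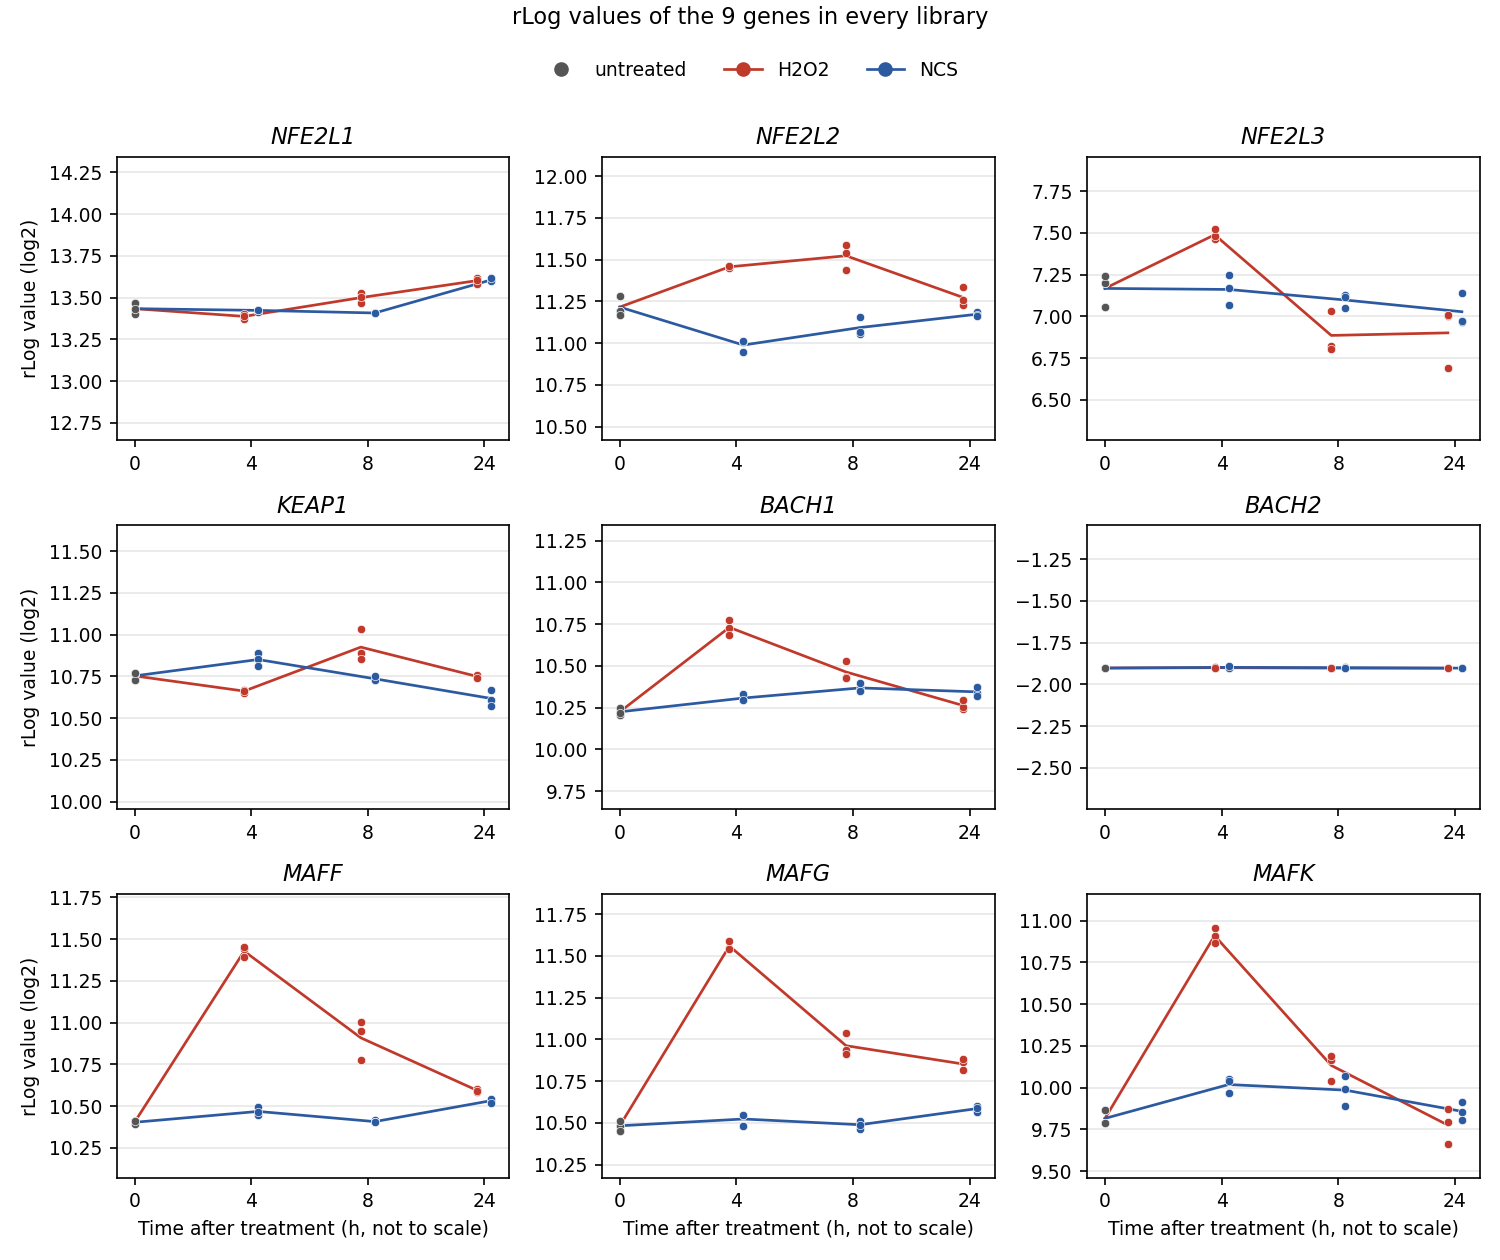
rLog level (log2) of each gene in all 21 libraries against the time after treatment, with time points evenly spaced. Points are libraries (grey untreated, red H2O2, blue NCS), lines join group means, and every panel spans the same number of log2 units. MAFF, MAFG and MAFK peak 4 h after H2O2, at group means of 11.43, 11.56 and 10.91.

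MAFF lay at 10.41, 10.39 and 10.41 in the untreated libraries and at 11.44, 11.39 and 11.45 4 h after H2O2. At 8 h its levels were 10.95, 10.77 and 11.00, and at 24 h 10.58, 10.61 and 10.59. All 9 H2O2 libraries lay above the untreated range, and the 3 time points did not overlap each other. The difference from untreated cells was 1.02 ± 0.04 (SE) at 4 h, 0.51 ± 0.04 at 8 h and 0.19 ± 0.04 at 24 h, with adjusted p = 3.71e-13, 7.55e-09 and 0.000405. After NCS, MAFF lay between 10.45 and 10.50 at 4 h and between 10.40 and 10.42 at 8 h, and neither group changed (differences of 0.07 and 0.0042, adjusted p = 0.307 and 1.0). It rose by 0.13 at 24 h after NCS (adjusted p = 0.00965).

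MAFF was searched, with the other genes, for letters of stress elements near its start. RefSeq promoter windows, the 250 bases before each annotated start in GRCh38.p14, were at hand for 8 of the 9 genes (14 windows), and MAFK had none. They were searched on both strands for the ARE core TGACNNNGC, for the AP-1 site TGANTCA, and for the cyclic AMP element TGACGTCA (CRE), which ATF and CREB factors bind. These occurred in 10.9%, 6.57% and 1.65% of 35116 windows of the same length, and in any window of 13.2%, 8.06% and 2.03% of 27305 genes. The MAFF window at chr22:38201744-38201993 (plus strand) held a CRE 54 bases and an ARE on the opposite strand 122 bases before the start. The stretches around all matches in these windows are shown on the strand of the gene, with the match in capitals, since they set MAFF, the small MAF gene with a match, beside its partners BACH1 and BACH2 and beside KEAP1.
MAFF CRE, chr22:38201930-38201957: gccgggtcggTGACGTCAccgcatgact
MAFF ARE, chr22:38201862-38201890: cttccaggggGCGGGGTCAtacgggggcg
BACH1 AP-1, chr21:29298864-29298890: gcggaaggagTGAGTCAcctgaccgct
BACH2 CRE, chr6:90296908-90296935: ggggagcgggTGACGTCAgcgccgaatg
KEAP1 ARE, chr19:10502807-10502835: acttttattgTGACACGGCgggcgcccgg
KEAP1 ARE, chr19:10502784-10502812: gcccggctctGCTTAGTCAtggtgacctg
The matches do not overlap one another. BACH2 also held a CRE, and its letters equal those of the MAFF match because the pattern searched has no free positions. A second MAFF window, at chr22:38202770-38203019, held no match, nor did the other windows of BACH1 and KEAP1. Each window with a match overlaps exons of its own gene in GENCODE v29. Whether a match bears on the RNA levels was not tested. The MAFG window at chr17:81927736-81927985 held none of the motifs. NFE2L1, NFE2L2 and NFE2L3 had no match either. A match describes letters, not binding, and these data do not measure binding.

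MAFG lay at 10.48, 10.45 and 10.51 in untreated cells and at 11.55, 11.59 and 11.54 4 h after H2O2. It had come down to 10.94, 10.91 and 11.04 by 8 h and to 10.81, 10.86 and 10.88 by 24 h. Every H2O2 library lay above every untreated and every NCS library. The differences from untreated cells were 1.08 ± 0.03, 0.48 ± 0.03 and 0.37 ± 0.03, with adjusted p = 7.82e-15, 9.72e-10 and 6.72e-09. MAFG and MAFF were both still higher at 24 h, by 0.37 and 0.19. After NCS, MAFG rose only at 24 h, by 0.10 (adjusted p = 0.00969). In GENCODE v29 its exons overlap those of SIRT7 on the same strand, and how the counting treated such reads is not given in the sources used here. SIRT7 differed by 0.08 at 4 h (adjusted p = 0.125) and rose by 0.32 at 8 h after H2O2 (adjusted p = 9.13e-06). It also rose by 0.19 at 24 h after H2O2, and by 0.14, 0.26 and 0.17 at 4, 8 and 24 h after NCS. The part of such reads in the MAFG values was not tested.

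MAFK lay at 9.79, 9.79 and 9.87 in untreated cells and at 10.96, 10.91 and 10.87 4 h after H2O2. Its 8 h levels were 10.17, 10.04 and 10.19, and those of 24 h were 9.87, 9.79 and 9.66. The libraries of 4 and 8 h lay above the untreated range, and those of 24 h overlapped it. The differences were 1.09 ± 0.05, 0.32 ± 0.05 and -0.04 ± 0.05, with adjusted p = 1.59e-11, 9.7e-05 and 0.672. MAFK was the only small MAF gene called at the early NCS times, where it rose by 0.20 (4 h, adjusted p = 0.0121) and 0.17 (8 h, adjusted p = 0.0263). The NCS levels were 10.05, 10.04 and 9.97 at 4 h and 10.07, 9.99 and 9.89 at 8 h, and both sets lay above the untreated range. The call at 4 h was lost without untreated replicate 1 or without NCS 4 h replicate 1, where the highest adjusted p was 0.055. The call at 8 h was lost without untreated replicate 1 or 2, without NCS 8 h replicate 1 or 2, and where only the groups compared were fitted, with adjusted p up to 0.142. MAFK exons overlap TMEM184A on the opposite strand. TMEM184A rose by 0.30 4 h after H2O2, and by 0.39 at 4 h and 0.33 at 8 h after NCS. It was not called at the other times. The strand setting of the counting is not given, so the part of such reads in the MAFK values was not tested.

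BACH1, the repressor of HMOX1 and other ARE genes, lay at 10.21, 10.25 and 10.22 in untreated cells. Its levels were 10.73, 10.69 and 10.78 4 h after H2O2. They were 10.53, 10.43 and 10.43 by 8 h, then 10.24, 10.25 and 10.30 by 24 h. The first 2 times lay above the untreated range and the last overlapped it. BACH1 rose by 0.51 ± 0.03 at 4 h and 0.24 ± 0.03 at 8 h (adjusted p = 1.37e-10 and 2.67e-06), and the difference at 24 h was 0.04 (adjusted p = 0.352). After NCS the order in time was another one. The difference was 0.08 at 4 h (adjusted p = 0.0602), and BACH1 rose by 0.14 at 8 h and by 0.12 at 24 h (adjusted p = 0.00106 and 0.0026). BACH2, a repressor best known from lymphocytes, lay between -1.90 and -1.89 in all 21 libraries, with group means 0.005 apart at most. Such a level is that of a gene with almost no reads, and no change of BACH2 was detectable here.

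NFE2L2 lay at 11.28, 11.19 and 11.17 in untreated cells and at 11.46, 11.45 and 11.46 4 h after H2O2. At 8 h after H2O2 it lay at 11.59, 11.44 and 11.54, and at 24 h at 11.23, 11.26 and 11.34. After NCS the 4 h libraries read 10.95, 11.01 and 11.01, the 8 h libraries 11.06, 11.16 and 11.07, and the 24 h libraries 11.19, 11.17 and 11.16. At 4 and 8 h, all H2O2 libraries lay above the untreated range and all NCS libraries below it. NFE2L2 rose by 0.24 ± 0.04 and 0.31 ± 0.04 after H2O2 (adjusted p = 4.1e-05 and 3.24e-06) and fell by 0.23 ± 0.04 and 0.12 ± 0.04 after NCS (adjusted p = 0.000276 and 0.0239). The fall at 8 h after NCS was not called without untreated replicate 1, NCS 8 h replicate 1 or NCS 8 h replicate 3, with adjusted p up to 0.143 over all alternatives. At 24 h the differences were 0.06 after H2O2 and -0.04 after NCS, neither of them called. Exons of NFE2L2 overlap AGPS on the opposite strand. AGPS fell by 0.21, 0.10 and 0.18 at 4, 8 and 24 h after H2O2. After NCS it differed by -0.07 at 4 h and -0.03 at 8 h, neither called, and fell by 0.10 at 24 h. The part of such reads in the NFE2L2 values was not tested.

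KEAP1 lay at 10.76, 10.73 and 10.77 in untreated cells. After H2O2 the 4 h libraries read 10.65, 10.67 and 10.66, the 8 h libraries 10.89, 10.85 and 11.04, and the 24 h libraries 10.75, 10.76 and 10.74. The 4 h libraries lay below the untreated range, the 8 h libraries above it, and the 24 h libraries within it. The fall of 0.09 ± 0.04 at 4 h was close to the limit (adjusted p = 0.0432) and was lost without any one of 5 of the 6 libraries compared, the exception being untreated replicate 2, with a highest adjusted p of 0.175. KEAP1 rose by 0.17 at 8 h (adjusted p = 0.000672). After NCS it differed by 0.10 at 4 h (adjusted p = 0.0677) and fell by 0.14 at 24 h (adjusted p = 0.00459). The 4 h libraries of H2O2 lay below, and those of NCS above, the untreated range, but the NCS difference was not called.

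NFE2L1 encodes NRF1, the factor that sits in the endoplasmic reticulum membrane and raises proteasome genes when proteasomes fail. It varied little, with group means 0.22 apart at most. Untreated libraries lay at 13.40, 13.47 and 13.43, and at 24 h the levels were 13.58, 13.62 and 13.60 after H2O2 and 13.60, 13.60 and 13.62 after NCS. Both 24 h groups lay above the untreated range and overlapped each other. NFE2L1 rose by 0.17 ± 0.02 at 24 h after either agent (adjusted p = 2.65e-07 and 2.1e-07) and by 0.07 at 8 h after H2O2 (adjusted p = 0.00602). The 8 h libraries overlapped the untreated ones, and that call was lost where only the groups compared were fitted (adjusted p = 0.136). The fall of 0.05 at 4 h after H2O2 (adjusted p = 0.041) was lost without untreated replicate 2, untreated replicate 3, H2O2 4 h replicate 1 or H2O2 4 h replicate 3, with adjusted p up to 0.224.

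NFE2L3 encodes NRF3, a relative whose functions are less well defined. Its 3 untreated libraries lay at 7.20, 7.06 and 7.24, and its levels were 7.47, 7.48 and 7.52 4 h after H2O2. They then were 6.82, 7.03 and 6.80 at 8 h, and those of 24 h ranged from 6.69 in replicate 2 to 7.01 in replicate 3. NFE2L3 lay above the untreated range at 4 h and below it at 8 and 24 h. It rose by 0.32 ± 0.08 at 4 h (adjusted p = 0.00336) and fell by 0.28 ± 0.08 at 8 h and 0.27 ± 0.08 at 24 h (adjusted p = 0.0102 and 0.0132). The step from 4 to 8 h, a fall of 0.60 ± 0.08 (adjusted p = 7.87e-06), was exceeded only by that of MAFK and was close to that of MAFG. The falls were not called without H2O2 8 h replicate 3 at 8 h, or without untreated replicate 3 or H2O2 24 h replicate 2 at 24 h, with adjusted p up to 0.108. After NCS no difference of NFE2L3 was called, and the largest was -0.14 at 24 h.

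**Figure D2:**
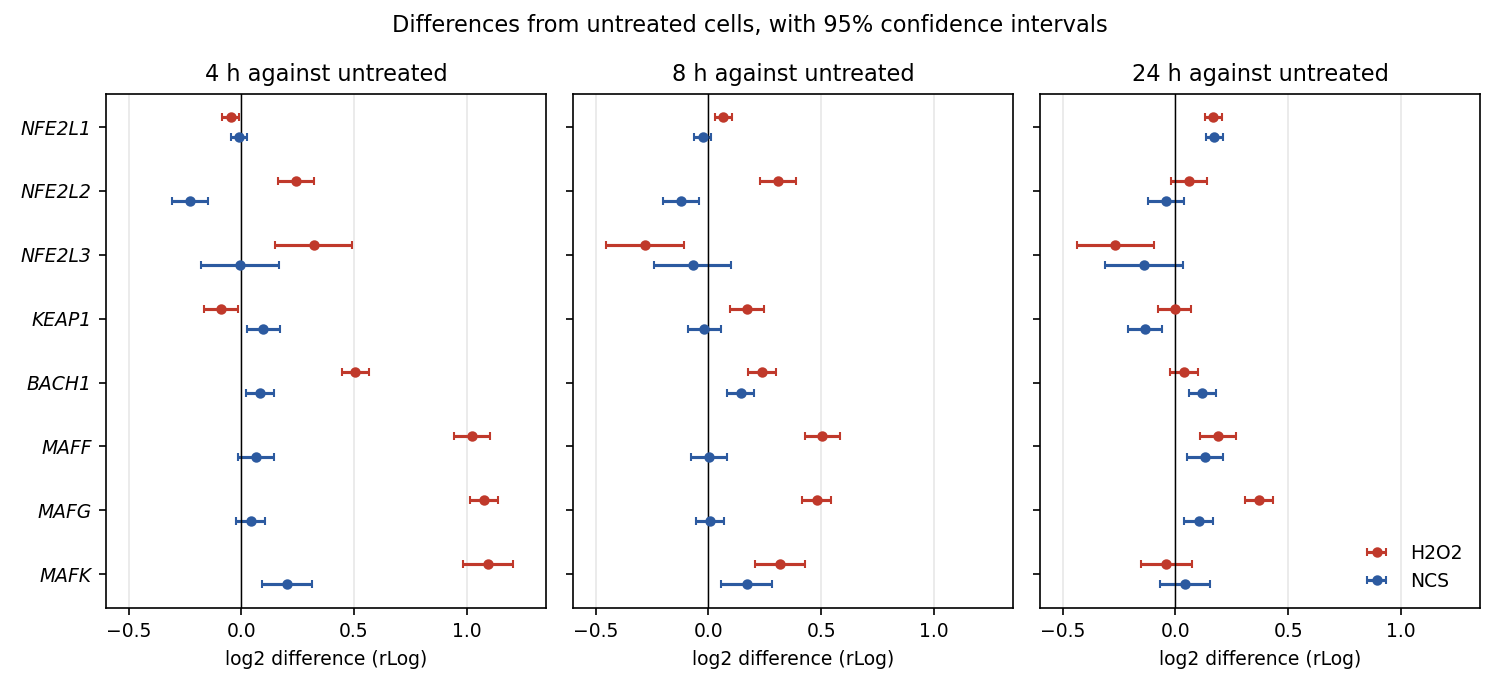
Log2 difference of each gene from untreated cells at 4, 8 and 24 h after H2O2 (red) or NCS (blue), with 95% confidence intervals from the fit of all 7 groups. BACH2 is left out. At 4 h the H2O2 values of MAFF, MAFG and MAFK lie at 1.02, 1.08 and 1.09, and NFE2L2 lies to the right of 0 for H2O2 and to the left for NCS.

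Set against all genes, counts of members that changed say little where H2O2 moved so many transcripts. All genes include those with few reads, which rLog shrinks most. The members other than NFE2L3 and BACH2 lay at percentile 77.3 or higher of mean level. Shares among genes of like level were not computed, for the members or for the lists below. Of the 9 genes, 8 changed 4 h after H2O2 (6 higher, 2 lower), where 45.9% of all genes did. At 8 h after H2O2, 8 changed (7 higher, 1 lower) against 37.4% of all genes, and at 24 h 4 changed (3 higher, 1 lower) against 40.0%. After NCS, 2 of 9 changed at 4 h (1 higher, 1 lower) against 17.2% of all genes, 3 at 8 h (2 higher, 1 lower) against 23.9%, and 5 at 24 h (4 higher, 1 lower) against 38.0%. The count at 24 h after H2O2 was near the share of all genes. A difference over 1 was rarer, reached 4 h after H2O2 by 3 of the 9 genes, the small MAF genes, and by 0.696% of all genes. The median difference of the 9 genes 4 h after H2O2 was 0.32, beside 0.0038 for all genes.

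Direct comparison of the agents at the same time used no untreated library for the difference of means, while the spread came from the fit of all groups. At 4 h, 7 of the 9 genes differed (6 higher and 1 lower after H2O2), where 44.4% of all genes did. MAFG was higher after H2O2 by 1.04 ± 0.03, MAFF by 0.96 ± 0.04 and MAFK by 0.89 ± 0.05 (adjusted p = 1.86e-14, 1.34e-12 and 2.5e-10). MAFG alone passed a difference of 1, as 0.574% of all genes did. NFE2L2 was higher by 0.47 ± 0.04, BACH1 by 0.42 ± 0.03 and NFE2L3 by 0.33 ± 0.08, and KEAP1 was lower by 0.19 ± 0.04. The libraries of the 2 agents did not overlap for any of these 7 genes, a separation that 50.1% of all genes showed.

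At 8 h, 7 of 9 were higher after H2O2 and none was lower, where 34.1% of all genes differed. The order had shifted to MAFF (0.50), MAFG (0.47) and NFE2L2 (0.43), followed by KEAP1 (0.19), MAFK (0.15), BACH1 (0.10) and NFE2L1 (0.09). KEAP1 was now on the same side as NFE2L2. The MAFK libraries of the 2 agents overlapped, and its call (adjusted p = 0.0396) was lost without H2O2 8 h replicate 1 or 3, or NCS 8 h replicate 2 or 3. The BACH1 call (adjusted p = 0.0158) was lost without H2O2 8 h replicate 1 or NCS 8 h replicate 3. Over these alternatives and all others run, the highest adjusted p was 0.206 for MAFK and 0.112 for BACH1.

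At 24 h, 2 of 9 differed, both higher after H2O2, where 21.9% of all genes differed. MAFG was higher by 0.27 ± 0.03 (adjusted p = 2.59e-06) with no overlap, 10.81 to 10.88 against 10.57 to 10.60. KEAP1 was higher by 0.13 ± 0.04 (adjusted p = 0.0111), a call lost without NCS 24 h replicate 2 (highest adjusted p 0.0607). For the other 7 genes the adjusted p was 0.0552 or more, and NFE2L1 had the narrowest interval of these apart from BACH2, from -0.04 to 0.03.

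**Figure D3:**
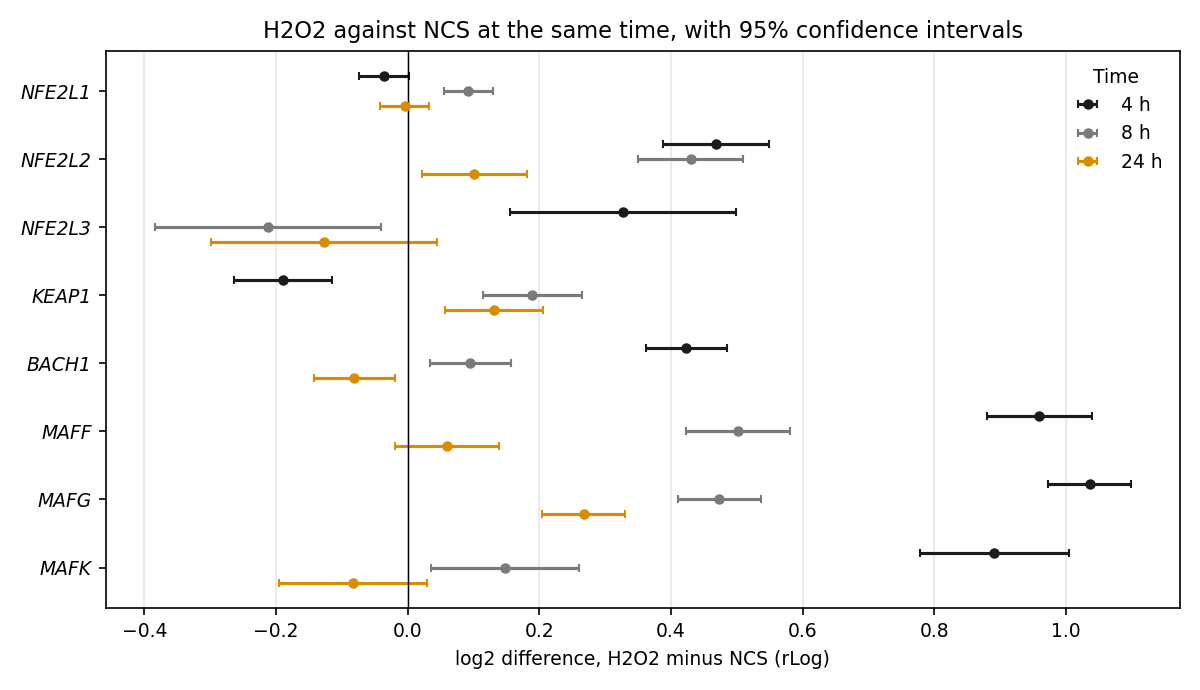
Log2 difference of H2O2 minus NCS at 4 h (black), 8 h (grey) and 24 h (orange), with 95% confidence intervals from the fit of all 7 groups. For the small MAF genes and BACH1 the 4 h value lies farthest right, and for KEAP1 it lies left of 0 at -0.19 and right of 0 at 8 and 24 h.

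The difference between the agents itself shifted from 4 to 24 h in 7 of the 9 genes (1 upwards, 6 downwards), where 39.4% of all genes shifted. It moved downwards by 0.97 ± 0.08 for MAFK, 0.90 ± 0.05 for MAFF and 0.77 ± 0.04 for MAFG. MAFK went from 0.89 to -0.08, past 0, though its difference at 24 h was not called (adjusted p = 0.34), whereas MAFF and MAFG went to 0.06 and 0.27. For KEAP1 it moved upwards by 0.32 ± 0.05, from below 0 to above it. NFE2L1, at 0.03 ± 0.03, was not called.

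Within each agent, the genes were followed from one time to the next. From 4 to 8 h after H2O2, 7 of 9 changed (2 higher, 5 lower), beside 45.7% of all genes. MAFK fell by 0.78, MAFG by 0.60, MAFF by 0.52 and BACH1 by 0.27, whereas KEAP1 rose by 0.26 and NFE2L1 by 0.11. The difference of NFE2L2 was 0.07, not called, with a 95% confidence interval from -0.01 to 0.15. From 8 to 24 h, 7 changed (1 higher, 6 lower), beside 42.6% of all genes. The falls were 0.36 for MAFK, 0.32 for MAFF, 0.25 for NFE2L2, 0.20 for BACH1, 0.18 for KEAP1 and 0.11 for MAFG, and NFE2L1 rose by 0.10.

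The NCS series moved less. From 4 to 8 h only KEAP1 changed, falling by 0.12 (adjusted p = 0.0368), beside 13.7% of all genes. That call was lost without NCS 4 h replicate 1 or 2, or without any NCS 8 h library, with adjusted p up to 0.159. From 8 to 24 h, 4 changed (3 higher, 1 lower), beside 29.9% of all genes. NFE2L1 rose by 0.20, MAFF by 0.13 and MAFG by 0.10, and KEAP1 fell by 0.12. Without NCS 24 h replicate 2, 2 of these 4 changes were called.

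Since the small MAF proteins serve as partners of both NRF2 and BACH1, the balance between genes was also followed within each library. The pairs were chosen after the values were seen, and other pairs were computed that are not described. Changes of these gaps follow from the differences of the single genes given above and are no separate evidence. The difference between 2 genes of a library is free of any scaling of that library, and with 3 libraries against 3 the exact two-sided permutation test cannot give a p below 0.1. The gap of MAFG over MAFK was 0.67 ± 0.03 (SD) in untreated cells and 0.65 ± 0.05 4 h after H2O2, so both had risen alike. It then widened by 0.16 at 8 h and by 0.41 at 24 h after H2O2, and narrowed by 0.16 at both 4 and 8 h after NCS. None of these 4 groups overlapped untreated cells (exact p = 0.1 each).

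NFE2L2 lost ground to BACH1 after both agents at 4 h, though BACH1 alone was not called 4 h after NCS. Relative to untreated cells, NFE2L2 minus BACH1 changed by -0.26 ± 0.08 (SD) 4 h after H2O2 and by -0.31 ± 0.08 4 h after NCS, and neither group overlapped untreated cells (exact p = 0.1 each). After H2O2 the gap was back at 8 h (0.07 above untreated, overlapping), and after NCS it was still narrower by 0.27 at 8 h and 0.16 at 24 h with no overlap. NFE2L2 minus KEAP1 moved in opposite directions, by 0.33 4 h after H2O2 and by -0.33 4 h after NCS, without overlap with untreated cells in either group (exact p = 0.1 each).

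**Figure D4:**
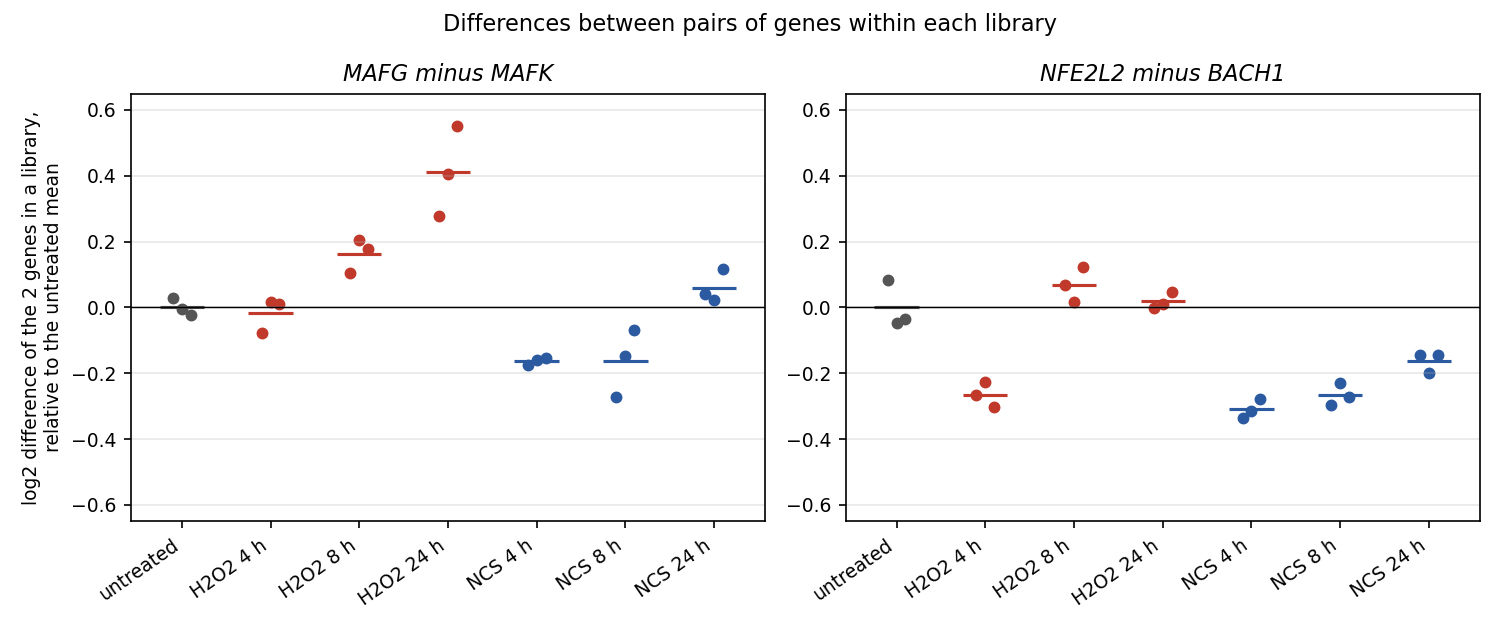
Difference of the rLog levels of 2 genes in each library, relative to the mean of the untreated libraries (log2), for MAFG minus MAFK and NFE2L2 minus BACH1. Points are libraries and bars are means of 3. MAFG minus MAFK reaches 0.41 at 24 h after H2O2, and NFE2L2 minus BACH1 lies at -0.26 and -0.31 at 4 h after H2O2 and NCS.

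Levels of the genes across libraries were set beside each other as a description. The points are 21 libraries from 7 groups, not independent draws, and the 3 libraries of H2O2 at 4 h stand apart for several genes. MAFF and MAFG had a Pearson r of 0.977 (Spearman 0.943) over the 21 libraries and 0.905 over the 18 libraries without H2O2 at 4 h. MAFG and MAFK had 0.858, but 0.238 without those 3 libraries. BACH1 had 0.939 with MAFK, 0.923 with MAFF and 0.868 with MAFG. Without those libraries these values were 0.718, 0.663 and 0.446.

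Among 11681 genes with a mean level of at least 5, other than members, the 3 most like MAFF were KIAA1683, ABCC2 (r = 0.989 each) and MMP25 (0.984), and without H2O2 at 4 h these values were 0.957, 0.952 and 0.939. ABCC2, which encodes an export pump for glutathione conjugates, is also on the list of target genes used here. The genes most like MAFG were AOC2 (0.988), PDE4C and RND3 (0.981 each), of which RND3 kept 0.961 without the 4 h libraries. Those most like MAFK were CORO2A (0.981), CSRNP1 (0.975) and ITGA7 (0.97), and these fell to 0.877, 0.805 and 0.73 without them.

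Target genes of NRF2 and BACH1, a list of 30 with all 30 tested, rose broadly after H2O2. At 4 h 20 rose and 1 fell, at 8 h 25 rose and none fell, and at 24 h 23 rose and 2 fell. Their median differences were 0.13, 0.36 and 0.35, beside medians of all genes between -0.0003 and 0.0038. After NCS, 8 rose and 1 fell at 4 h, 5 rose and 1 fell at 8 h, and 9 rose and 4 fell at 24 h, with medians of 0.05, 0.03 and 0.03. Across all genes, 26.2%, 18.8% and 20.2% rose at the 3 times after H2O2 and 7.47%, 10.5% and 19.6% after NCS. H2O2 exceeded NCS in 13 of the 30 at 4 h, 24 at 8 h and 22 at 24 h, where 26.3%, 18.7% and 11.0% of all genes were higher.

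HMOX1, the heme oxygenase gene that BACH1 represses, was the strongest. Its mean level went from 9.74 in untreated cells to 13.18 4 h after H2O2, 12.24 at 8 h and 10.51 at 24 h, with rises of 3.44, 2.50 and 0.76. It rose by 0.88, 0.45 and 0.27 after NCS too. ABCC2 rose by 1.71 at 4 h and 0.80 at 8 h after H2O2 and was not called after NCS. Other targets peaked later than the small MAF genes. TXNRD1, the cytosolic thioredoxin reductase, rose by 0.33, 1.06 and 0.46 over the 3 times, and OSGIN1, a growth inhibitor induced by oxidative stress, by 0.56, 1.13 and 0.41. OSGIN1 also rose after NCS, by 0.59 at 4 h and 0.48 at 8 h, and the agents differed by -0.03 at 4 h (adjusted p = 0.784). SLC7A11, the cystine importer, rose by 0.68, 0.96 and 0.66 and was 1.00 higher than after NCS at 8 h, and it fell by 0.20 4 h after NCS. ABCC3, another export pump, rose by 0.29, 0.47 and 1.60. TXNRD1 fell by 0.25 24 h after NCS, and ABCC3 rose by 0.32, 0.30 and 0.78 after NCS.

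Regulators of NRF and BACH proteins, 17 of 17 tested, were mixed in direction. After H2O2, 4 rose and 5 fell at 4 h, 8 rose and 5 fell at 8 h, and 11 rose and 5 fell at 24 h. After NCS, 4 rose and 3 fell, 7 rose and 2 fell, and 9 rose and 3 fell. Of all genes, 45.9%, 37.4% and 40.0% changed at the 3 times after H2O2 and 17.2%, 23.9% and 38.0% after NCS, and the 9 of 17 regulators that changed 4 h after H2O2 are near that share. SQSTM1, which encodes p62, a protein that carries KEAP1 to autophagy, rose by 0.44, 0.71 and 0.87 over the 3 times after H2O2 and by 0.19, 0.11 and 0.32 after NCS. GSK3B, a kinase that marks NRF2 for destruction, fell by 0.28 4 h after H2O2 and rose by 0.12 at 8 and 24 h. After the values were seen, further genes were singled out. FBXO22, the receptor of a ubiquitin ligase for BACH1, rose in all 6 comparisons with untreated cells, by 0.15, 0.53 and 0.43 after H2O2 and by 0.63, 0.62 and 0.43 after NCS. FBXL17 and HUWE1, also on the list, moved otherwise after H2O2. FBXL17 differed by -0.09 at 4 h, not called, fell by 0.28 at 8 h and rose by 0.42 at 24 h. HUWE1 fell by 0.28 at 4 h and 0.09 at 8 h and rose by 0.12 at 24 h. After NCS, of these 2 genes only FBXL17 at 24 h was called, with a rise of 0.24. CUL3, the scaffold of the KEAP1 ligase, fell at the 3 NCS times by 0.12, 0.18 and 0.09. After H2O2 it differed by 0.02 at 4 h (adjusted p = 0.653), rose by 0.09 at 8 h and fell by 0.09 at 24 h. It was higher after H2O2 than after NCS by 0.14 at 4 h and 0.27 at 8 h, and at 24 h the agents differed by 0.0014 (adjusted p = 0.987).

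Proteasome genes, which NRF1 can activate, moved by small amounts. Of 34, 23 rose and 1 fell 4 h after H2O2, 13 rose and 1 fell at 8 h, and 6 rose and 12 fell at 24 h. After NCS, 6 rose at 4 h, 8 rose and 1 fell at 8 h, and 8 rose and 7 fell at 24 h. Beside the shares of all genes just given, which count both directions, the 14 of 34 that changed 8 h after H2O2 and the 6, 9 and 15 that changed after NCS are near the background. For rises alone, the shares of all genes were 18.8% at 8 h after H2O2 and 7.47% and 10.5% at 4 and 8 h after NCS. The 13, 6 and 8 of 34 that rose there lie above these shares. At 24 h, 20.2% of all genes rose after H2O2 and 19.6% after NCS. The genes with the largest difference 4 h after H2O2 were the core subunits PSMB1 and PSMB7, at 0.19 and 0.18, and the list's median was 0.11. The proteasome count 8 h after H2O2, 14 in both directions, was 9 without H2O2 8 h replicate 3, and the count of 6 at 4 h after NCS was 1 without untreated replicate 1 or NCS 4 h replicate 1, and 3 without untreated replicate 2 or NCS 4 h replicate 3. The regulator count of 7 at 4 h after NCS was 4 without untreated replicate 1 or NCS 4 h replicate 2.

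Of 4 CNC and large MAF relatives (NFE2, MAF, MAFA and NRL), 2 rose 4 h after H2O2, where 26.2% of all genes did. NRL rose by 0.19 and MAFA by 0.08, from untreated means of 2.96 and 0.40, levels at which the shrinkage of rLog is strong. Under quantile normalization none of the 4 was called there, and 1 was where only the groups compared were fitted. After NCS, and at 8 and 24 h after H2O2, none of the 4 was called.

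**Figure D5:**
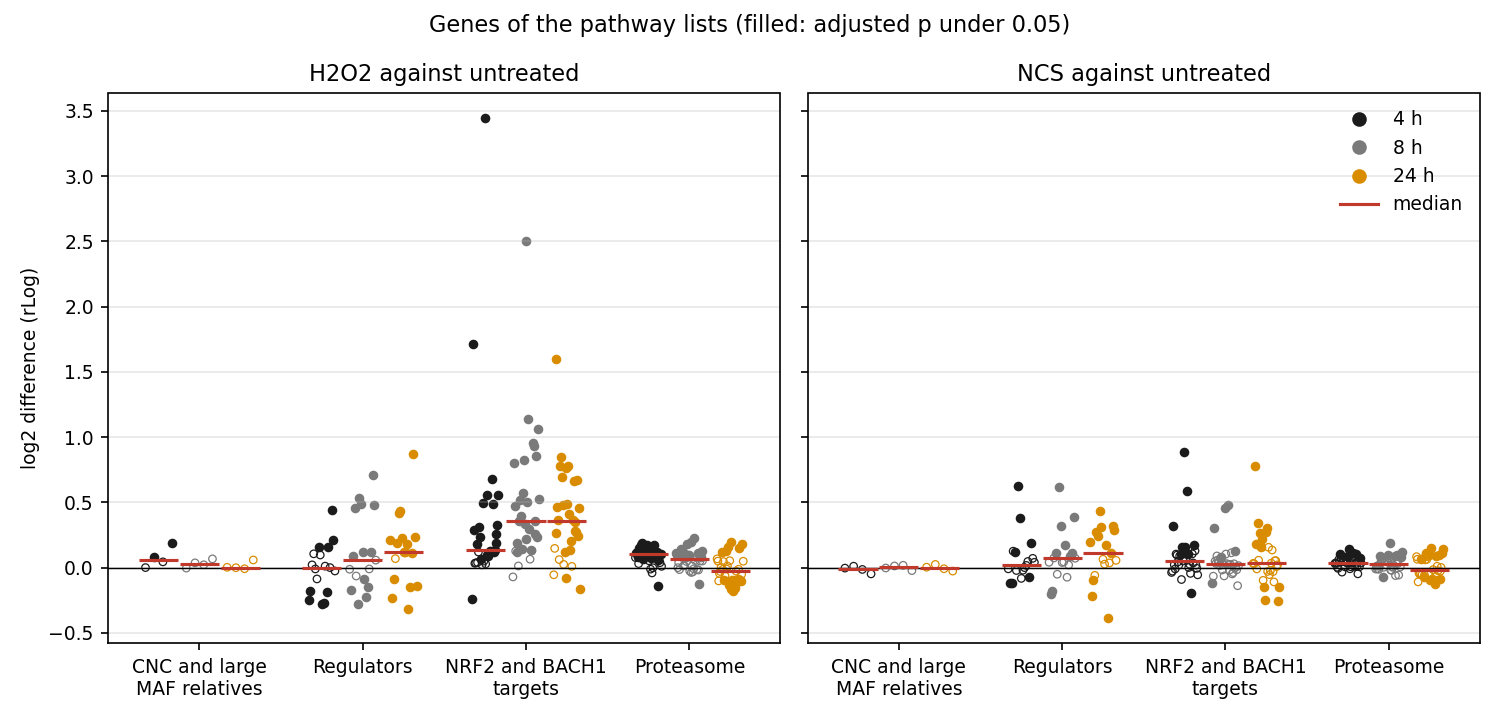
Log2 difference from untreated cells for every gene of 4 lists after H2O2 (left) and NCS (right), at 4 h (black), 8 h (grey) and 24 h (orange). Filled points had an adjusted p under 0.05, red bars are medians, and HMOX1 is the point at 3.44.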

How the data were processed

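The authors deposited log2 values that they had computed from paired reads of stranded poly(A) libraries, by HISAT2 alignment, htseq-count per gene and the rLog transformation of DESeq2 on all 21 libraries together. The transformation corrects for library size and pulls differences towards 0, above all where reads are few. The submitters' processing notes name hg19, while versions, annotation and the strand setting are not given in the sources used here. The deposited file holds no counts, so depth is unknown and no counting interval was possible.

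Of 23368 genes, 3674 were 0 in every library and 19694 were tested. In the gene names, 28 had turned into dates and 2 were repeated. One limma 3.58.1 fit (R 4.3.3) of all libraries, with a mean-variance trend, checked on simulated data, gave 14 two-sided comparisons. Comparisons with untreated cells share the 3 control libraries. Members and lists were chosen with earlier results of these data known, and 2 of the listed genes are not reported here. Named list genes passed an adjusted p of 0.05 and a log2 difference of 1, or else were the 2 with the largest difference 4 h after H2O2. For a member whose group means spanned over 1, the 3 most correlated genes were named. Libraries with the same replicate number were not treated as pairs, since not every such pair's deviations correlated above 0.1. Alternatives were median alignment, quantile normalization, a mean of at least 5, only the groups compared, no trend, a replicate block, other limits and each library left out. Promoter sequences came from RefSeq (GRCh38.p14) and exon overlaps from GENCODE v29 (GRCh38).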

Additional observations from a re-analysis of the deposited data

Results flagged for a closer look

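The difference between H2O2 and NCS itself changed from 4 to 24 h, by an interaction term of the limma fit, in 7 of the 9 genes (39.4% of all genes passed the same test). It changed by -0.97 for MAFK, -0.90 for MAFF, -0.77 for MAFG, -0.50 for BACH1, -0.45 for NFE2L3, -0.37 for NFE2L2 and 0.32 for KEAP1. The largest adjusted p among them was 0.00421, for NFE2L3. All 7 remained called in each of the 18 alternative fits, in which MAFK ranged from -1.02 to -0.92 and KEAP1 from 0.30 to 0.35. For KEAP1 the difference between the agents went from -0.19 at 4 h to 0.13 at 24 h, and the call at 24 h rested on NCS 24 h replicate 2. The 4 and 24 h groups contributed 3 libraries each, and how such shifts arise was not tested.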

How the results depend on the processing

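Of 126 values (9 genes in 14 comparisons), 90 kept their call in every alternative fit and 36 did not. With library medians aligned, BACH2 changed sign and was called at -0.0209 (NCS 8 h against untreated), 0.0189 (H2O2 against NCS at 8 h) and 0.0277 (NCS 24 h against NCS 8 h), at a level near the bottom of the table. That alignment adds the same amount to every gene of a library, so these BACH2 differences include the shift. Without it they were 0.0022, -0.0026 and -0.0026, none of them called. It shifted the median of all genes by at most 0.03. At a log2 difference over 0.58, 3 members passed in H2O2 4 h against untreated, H2O2 against NCS at 4 h, H2O2 8 h against 4 h and the shift between the agents, and 0 passed in the other 10 comparisons. At an adjusted p under 0.01, 1 member passed in NCS 4 h and NCS 8 h against untreated, H2O2 against NCS at 24 h and NCS 24 h against 8 h, and 0 in NCS 8 h against 4 h. Quantile normalization gave 4 for NCS 4 h against untreated, and 4 for H2O2 against NCS at 24 h, as did median alignment and the filter at a mean of 5. That filter gave 2 for NCS 8 h against 4 h, and a fit of only the groups compared gave 1 for NCS 8 h against untreated. Fewer genes or samples enter those last fits.

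Leaving out each library in turn gave 6 to 7 members for H2O2 4 h, 7 to 8 for H2O2 8 h and 3 to 4 for H2O2 24 h against untreated cells. It gave 1 to 2 for NCS at 4 h (1 without untreated replicate 1 or NCS 4 h replicate 1), 1 to 3 at 8 h (1 without untreated replicate 1 or NCS 8 h replicate 1) and 5 at 24 h. For H2O2 against NCS the 4 h count was 7, the 8 h count 5 to 8 and the 24 h count 1 to 3 (1 without NCS 24 h replicate 2). Between times they were 7 to 8 and 7 for H2O2, 0 to 1 and 2 to 4 for NCS (0 without NCS 4 h replicate 1 or 2 or any NCS 8 h library, 2 without NCS 24 h replicate 2), and 7 for the shift between the agents. Deviations of libraries with the same replicate number had a mean correlation of 0.03 (-0.149 to 0.213 over 63 pairs), and 12 of 21 libraries correlated best with their own number, a hint from the data and not the design. A replicate block gave counts of 8, 8 and 4 for H2O2 and 2, 3 and 5 for NCS against untreated cells, all equal to those without it, and no member's call changed. Depth is unknown, so what it limits could not be given.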
